A study of Mus musculus with 6 samples.

Results

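The matrix proteoglycan genes followed in these infarcted mouse hearts were Bgn, Dcn, Aspn, Fmod, Lum, Prelp, Ogn, Vcan, Acan and Hapln1. They were picked by symbol as small leucine-rich proteoglycans and hyalectans, with the link protein gene Hapln1, and all 10 of them were found among the 26012 genes of the expression table. The hearts came from male C57BL/6 mice, 8 weeks of age, in which the left anterior descending coronary artery was tied off to cause myocardial infarction (MI). Every heart was also injected with 10 μg of synthetic microRNA mimic, a short RNA duplex that acts like the mature microRNA. The 3 control hearts received control mimic and the 3 treated hearts received miR-19a and miR-19b mimics together. Ventricular tissue was collected 4 days after MI and its polyadenylated RNA was sequenced. All hearts were infarcted, so the comparison is between mimics within injured tissue, and no uninjured heart was analysed here.

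Small leucine-rich proteoglycans have a core protein made of short leucine-rich repeats that grips collagen fibrils and sets their thickness and spacing. Most carry chondroitin, dermatan or keratan sulfate chains. The hyalectans, also called lecticans, are much larger and bind the polysaccharide hyaluronan, a contact that link proteins such as Hapln1 hold in place. In the heart after infarction, fibroblasts are the main source of these proteins as granulation tissue turns into scar, whereas aggrecan is best known from cartilage and from heart valves.

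The mimics carry the sequences of miR-19a and miR-19b, shown here because they define which transcripts the treatment could pair with. The mature mouse sequences (RefSeq, GRCm38.p6) are printed from 5′ to 3′ with the seed, bases 2 to 8, in capitals.

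miR-19a-3p: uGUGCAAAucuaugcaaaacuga

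miR-19b-3p: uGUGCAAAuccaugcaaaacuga

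The miRNAs share the seed and are both 23 bases long, and from miR-19a to miR-19b there is a single substitution, U11C, counted from the 5′ end. Their genes lie on chromosome 14, from 115044048 to 115044070 for the mature miR-19a and from 115044358 to 115044380 for miR-19b, which is also encoded on chromosome X from 52741991 to 52742013. The DNA letters that pair with the seed are TTTGCAC (bases 2 to 8), TTGCACA (bases 2 to 7, followed by A) and TTTGCACA, which contains both 7-mers. They were looked for on the transcript strand in the longest annotated 3′ UTR of each gene (GENCODE M21, GRCm38). Of the 10 genes, 1 held a match, Lum, and 0 held the 8-mer. Among the 15866 tested genes with a 3′ UTR, 19.3% held a match and 5.8% held the 8-mer. The match in Lum is the 7-mer to bases 2 to 8 and starts at base 531 of a 3′ UTR of 652 bases. It is shown in capitals with its neighbouring bases, on the plus strand at chr10:97572571-97572600.

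Lum 3′ UTR: cgcagtaagcaTTTGCACggttacttagtg

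The 3′ UTRs without a match ranged from 488 bases in Dcn to 3503 bases in Hapln1, and those of Fmod (1652 bases), Vcan (1919 bases), Bgn (1137 bases) and Acan (823 bases) were among them. A match only describes the letters in this window, and none of the searched letters were found in the other 9 windows.

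Several of these genes lie side by side. Dcn (chromosome 10, 97479500 to 97518162) and Lum (97565501 to 97572703) stand with Kera and Epyc in a run of 4 genes within 202.8 kb that holds no other protein-coding gene. Aspn (chromosome 13, 49544443 to 49567557) and Ogn (49608071 to 49624500) stand with Ecm2 and Omd within 119.7 kb, and Cenpp spans them on the other strand. Prelp (chromosome 1, 133910304 to 133921414) and Fmod (134037254 to 134048277) form another run with Optc within 151.1 kb. The hyalectans are each next to a link protein gene, Vcan (chromosome 13, 89655312 to 89742509) to Hapln1 (89540636 to 89611832) and Acan (chromosome 7, 79053483 to 79115099) to Hapln3. Bgn lies alone on chromosome X from 73483602 to 73495933. Coordinates are those of the expression table, which are on GRCm38. Reads were not stated to be counted by strand, so counts of Aspn, Ogn, Prelp, Vcan and Hapln1, each overlapped by another annotated gene or pseudogene, may hold reads of that partner.

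The libraries held between 19398196 and 23645308 reads on genes. The values are normalized counts, that is, reads of a gene over the size factor of the library. Among hearts, miR-19a/19b mimic replicate 3 stood apart, its counts differing from those of its group mates by a chi-square of 121 to 135 per degree of freedom, where the other pairs of one group gave 10.3 to 26.6 and sampling noise alone gives about 1. Its 10 cardiomyocyte markers, among them Myh6 and Tnnt2, summed to 340751 normalized counts against 561994 to 990389 in the other hearts. Its 9 cardiac fibroblast markers summed to 844876 against 504033 to 714830. The collagen genes Col1a1, Col1a2 and Col3a1 made up 95.3% to 97.6% of the fibroblast sums. Of the other fibroblast markers, Pdgfra and Pdgfrb were highest in that heart. Tcf21, Gsn, Dpep1 and Ddr2 lay within the range of the other hearts. The sum of 8 activated fibroblast markers, 106922, lay within the 91814 to 151189 of the other hearts. In miR-19a/19b mimic replicate 1, 14 skeletal muscle genes summed to 3543 normalized counts against 37.1 to 76.1 elsewhere. The part of these differences in the results below was not tested. In a piece of bulk tissue, fewer cells of a type and less RNA per cell cannot be told apart.

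The 10 genes spanned nearly the whole range of expression. Per kilobase of gene length as listed by the authors, Bgn, which encodes biglycan, was the highest in its median, with 5955 to 8217 normalized counts per kilobase over the 6 hearts, above 99.5% of the genes tested. Dcn, which encodes decorin, followed with 5056 to 6177 and overlapped it. Aspn (2005 to 3263), Lum (1869 to 2401) and Ogn (1370 to 1964) came next and each overlapped its neighbour in this order, while all 3 stayed below every value of Dcn. Dcn stood 2.11-fold to 3.22-fold over Lum, its neighbour on the chromosome, on this scale. Prelp (234 to 332), Vcan (190 to 239) and Fmod (94.5 to 338) formed the next tier and overlapped in this order. Acan was at 11.2 to 41.9 and Hapln1 at 0.185 to 2.32, each apart from its neighbours. Vcan was 5.61-fold to 17.0-fold over Acan per kilobase, so versican was the hyalectan with the most transcript in these hearts. Dividing by the length of one annotated coding transcript in place of the listed length left the order of the medians as it was. It widened the lead of Bgn, to between 15014 and 20717 per kilobase against 5994 to 7323 for Dcn, because the listed length of Bgn, 6099 bases, includes exons of other transcripts beside the 2419 bases of the coding one.

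**Figure D1:**
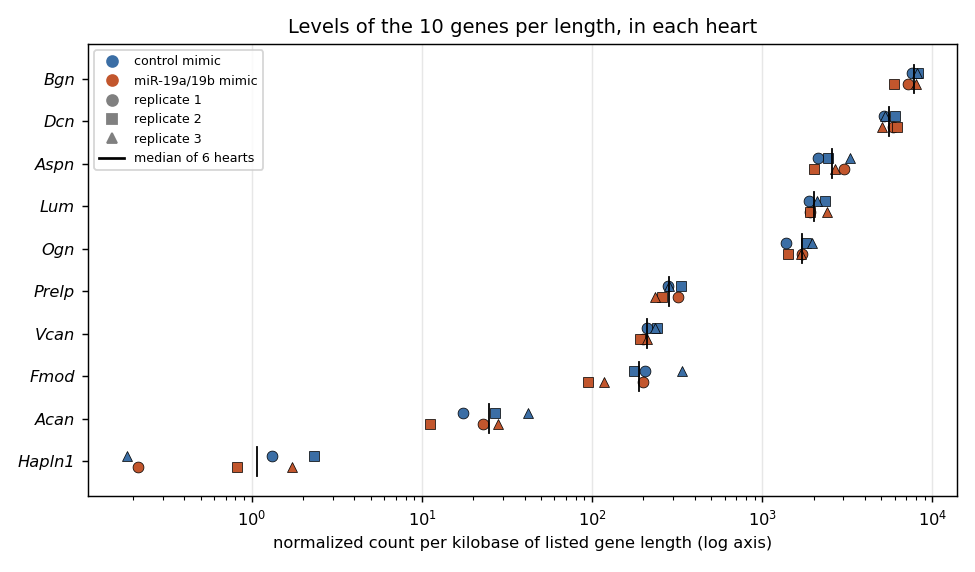
Normalized counts per kilobase of listed gene length for the 10 genes in each of 6 hearts, on a log axis, ordered by the median of the 6 hearts (black line); colours give the group and marker shapes the replicate. Bgn and Dcn lie at 5056 or more, Hapln1 at 2.32 or less, and the points of the groups mix in most rows.

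Together the 10 genes took 0.294% to 0.403% of the reads of a heart. The control mimic hearts were at 0.347%, 0.403% and 0.379%, and the miR-19a/19b mimic hearts at 0.332%, 0.294% and 0.396%, so the groups overlapped. By summed level per kilobase, Bgn made up 33.0% to 40.2% of the 10 genes, Dcn 24.4% to 34.3%, Aspn 11.1% to 15.1%, Lum 9.35% to 11.8% and Ogn 7.26% to 9.07% in a heart. The remaining genes were each at most 1.56%.

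No gene of the 10 passed the test between the groups. In limma on log2(normalized count + 1), over 21126 genes with a mean of at least 1 normalized count, 0 of the 10 were lower and 0 higher at an adjusted p-value under 0.05, and 0% of all genes tested passed in either direction. At an unadjusted p-value under 0.05, Fmod alone was lower and 0 were higher, against 2.63% of all genes lower and 1.39% higher (4.01% in either direction). The median log2 fold change of the 10 genes was -0.17, with 9 of them below 0. Over all genes tested the median was 0.0041, and 49.2% were below 0. The 10 genes were measured in the same 6 hearts, so their signs are not independent counts. Of the 9, Lum (-0.014), Aspn (-0.019) and Ogn (-0.076) lay near 0. Their signs, and those of Hapln1 and Dcn, turned in some fits with a single heart left out. Under other settings with all 6 hearts, including edgeR and DESeq2 on recovered reads, 0 of the 10 passed as well. For single values, the smallest p-value of an exact permutation test with 3 hearts a group is 0.1.

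**Figure D2:**
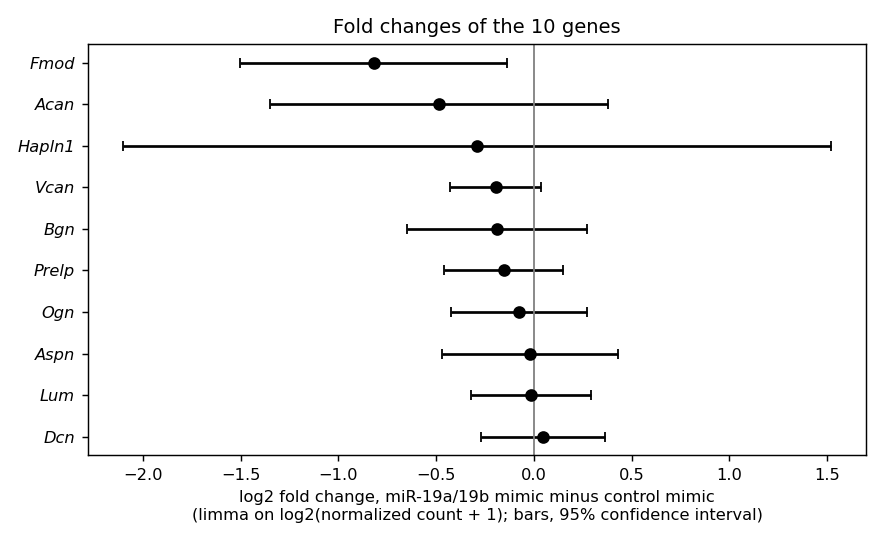
Log2 fold change of each of the 10 genes, miR-19a/19b mimic minus control mimic (points), with its 95% confidence interval from limma (bars), on log2(normalized count + 1); the grey line marks no difference. The interval of Fmod alone lies wholly below 0, and those of Dcn and Lum are centred near 0.

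Fmod (ENSMUSG00000041559) encodes fibromodulin, a keratan sulfate proteoglycan that binds collagen and steers its cross-linking. Control mimic replicates 1, 2 and 3 had 679, 581 and 1116 normalized counts, and the corresponding miR-19a/19b mimic hearts 658, 312 and 388. The lowest values were both in miR-19a/19b mimic hearts and the highest was in control mimic replicate 3, but miR-19a/19b mimic replicate 1 lay within the control range, so the groups overlapped. The means were 792 ± 285 (SD, n = 3) and 453 ± 182, a log2 fold change of -0.82 (standard error 0.30, 95% confidence interval -1.50 to -0.14, unadjusted p = 0.0240, adjusted p = 0.9996 from limma). An exact permutation test on the normalized counts gave p = 0.2, two-sided. Without control mimic replicate 3 the log2 fold change was -0.54, and without miR-19a/19b mimic replicate 2 it was -0.59, with unadjusted p-values of 0.0995 and 0.0990 from limma. Without miR-19a/19b mimic replicate 1 it was -1.12 (unadjusted p = 0.00278, adjusted p = 1 from limma), and without replicate 3 of that group -0.74 (unadjusted p = 0.0285, adjusted p = 0.266). Fmod and the list of 8 activated fibroblast markers, among them Postn, Cthrc1, Lox and Cilp, had their lowest values in the same pair of hearts and their highest in the same heart. The markers summed to 112876, 119504 and 151189 normalized counts in the control mimic hearts and to 121238, 91814 and 106922 in the miR-19a/19b mimic hearts. Of the 8 markers, 7 had a log2 fold change below 0 and 1 an unadjusted p-value under 0.05. Postn alone made up 50.6% to 58.6% of the sum, and without it the sum was lowest in miR-19a/19b mimic replicate 2 and control mimic replicate 2. The match with the sum of all 8 markers was found among many pairs of a gene and a list set side by side. The part of these markers in the values of Fmod was not tested.

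The genes beside Fmod gave smaller differences. Prelp (ENSMUSG00000041577) encodes a leucine-rich repeat protein with a basic end that binds heparan sulfate. It had 1012, 1200 and 1026 normalized counts in the control mimic hearts and 1149, 931 and 845 in the miR-19a/19b mimic hearts, so that the first treated heart lay among the controls. The log2 fold change was -0.15 (standard error 0.13, 95% confidence interval -0.46 to 0.15). It was -0.28 without miR-19a/19b mimic replicate 1 (unadjusted p = 0.0569, adjusted p = 1 from limma), -0.057 without replicate 3 of that group and -0.075 without control mimic replicate 2. Optc, the other gene of that run, was barely expressed, at 6.06 ± 1.96 and 4.90 ± 4.27 normalized counts (SD, n = 3).

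Lum (ENSMUSG00000036446) encodes lumican, a keratan sulfate proteoglycan that organizes fibrils, and is the gene with the seed match printed above. It had 3877, 4830 and 4325 normalized counts in the control mimic hearts and 3972, 3976 and 4983 in the miR-19a/19b mimic hearts. The groups overlapped over nearly their whole range, and the highest value was in a treated heart. Its log2 fold change was -0.014 (standard error 0.14), with a 95% confidence interval from -0.32 to 0.29, that is, between 0.801-fold and 1.22-fold of control.

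Bgn (ENSMUSG00000031375) encodes biglycan, which carries chondroitin or dermatan sulfate chains and, once set free from the matrix, is known as a danger signal for macrophages. Its normalized counts were 46272, 50114 and 49775 in the control mimic hearts and 43908, 36318 and 48922 in the miR-19a/19b mimic hearts. The control hearts lay close together and the treated hearts spread more widely, with replicate 2 the lowest and replicate 3 within the control range. The means were 48720.5 ± 2127 (SD, n = 3) and 43049 ± 6346, a log2 fold change of -0.19 (standard error 0.20, 95% confidence interval -0.65 to 0.27). Without miR-19a/19b mimic replicate 2 it was -0.071, and without replicate 3 it was -0.29 (unadjusted p = 0.0969 from limma).

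Dcn (ENSMUSG00000019929) encodes decorin, the close relative of biglycan that coats collagen fibrils and binds TGF-β. It had 10839, 12616 and 11033 normalized counts in the control mimic hearts and 12218, 12874 and 10537 in the miR-19a/19b mimic hearts. Unlike Bgn, it was highest in miR-19a/19b mimic replicate 2 and lowest in replicate 3. The log2 fold change was 0.045 (standard error 0.14, 95% confidence interval -0.27 to 0.36), the only one of the 10 above 0. Within a heart, the ratio of Dcn to Bgn counts was 0.222 to 0.252 in the control mimic hearts and, in the order of replicates, 0.278, 0.354 and 0.215 with miR-19a/19b mimic (exact permutation test, two-sided, p = 0.4). That ratio was therefore wider in its spread among treated hearts, both above and below the controls, and is not a comparison of levels between the genes.

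Aspn (ENSMUSG00000021388) encodes asporin, a relative of decorin that has a run of aspartates and no sulfated chain. Its normalized counts were 4995, 5709 and 7656 in the control mimic hearts and 7115, 4704 and 6266 in the miR-19a/19b mimic hearts, and its log2 fold change was -0.019 (standard error 0.20). Ogn (ENSMUSG00000021390) encodes osteoglycin, also called mimecan, which shapes collagen fibrils. It had 3479, 4570 and 4989 normalized counts in the control mimic hearts and 4372, 3604 and 4295 in the miR-19a/19b mimic hearts, and its log2 fold change was -0.076 (standard error 0.15). The groups overlapped for these neighbours, both of which were highest in control mimic replicate 3. The other genes of the run, Ecm2 and Omd, had log2 fold changes of -0.14 (standard error 0.16) and -0.45 (standard error 0.27).

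Vcan (ENSMUSG00000021614) encodes versican, the large hyaluronan-binding proteoglycan of provisional matrix. It was the only gene of the 10 whose groups did not overlap, where 5.3% of all genes tested were lower in this way and 3.9% higher (9.2% either way). Its normalized counts were 3056, 3458 and 3401 in the control mimic hearts and 2875, 2752 and 3031 in the miR-19a/19b mimic hearts. The gap was narrow, between 3056 in the lowest control and 3031 in the highest treated heart, and it closed when libraries were scaled otherwise. With TMM factors these hearts were at 3067 and 3095, and with library totals at 3100.5 and 3287. The means were 3305 ± 217 (SD, n = 3) and 2886 ± 140, a log2 fold change of -0.19 (standard error 0.10, 95% confidence interval -0.43 to 0.04, unadjusted p = 0.0904, adjusted p = 0.9996 from limma). The exact permutation test gave p = 0.1, two-sided, the smallest that 3 against 3 allow. Without miR-19a/19b mimic replicate 3, the log2 fold change was -0.23 (unadjusted p = 0.0318, adjusted p = 0.280 from limma), in a fit where 0.729% of all genes were lower at an adjusted and 6.12% at an unadjusted p-value under 0.05.

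Acan (ENSMUSG00000030607) encodes aggrecan. It had 130, 201 and 313 normalized counts in the control mimic hearts and 170, 83.5 and 209 in the miR-19a/19b mimic hearts. The lowest heart was treated and the highest was a control, and the other 4 hearts mixed. The log2 fold change was -0.49 (standard error 0.38, 95% confidence interval -1.35 to 0.38), which moved to -0.097 without miR-19a/19b mimic replicate 2, to -0.17 without control mimic replicate 3, to -0.80 without control mimic replicate 1 and to -0.75 without miR-19a/19b mimic replicate 3 (unadjusted p = 0.0486, adjusted p = 0.341 from limma). From lowest to highest, the 6 hearts had the same order for Acan as for the summed list of 9 chondrocyte and valve markers. Col11a1, a fibrillar collagen found in cartilage, made up 42.3% to 61.8% of that sum and was the 1 marker of the 9 with this order, and the sum of the other 8 had another order. The 9 markers summed to 2289, 2889 and 3601 normalized counts in the control mimic hearts and to 2433, 1729 and 3153 in the miR-19a/19b mimic hearts. Of the 9 markers, 7 had a log2 fold change below 0, and Col2a1, the main collagen of cartilage, was the one with an unadjusted p-value under 0.05. Col2a1 had 33.2, 81.0 and 42.0 normalized counts in the control mimic hearts and 30.1, 14.4 and 22.5 in the miR-19a/19b mimic hearts (unadjusted p = 0.0165, adjusted p = 0.9996 from limma), and Matn1, which encodes a cartilage matrilin, had means of 3.45 and 2.44. The match in order was found among many pairs of a gene and a list set side by side. The part of these markers in the values of Acan was not tested.

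Hapln1 (ENSMUSG00000021613), which encodes the link protein that locks hyalectans onto hyaluronan, was near the limit of detection. It had 6, 12 and 1 reads in the control mimic hearts and 1, 4 and 10 in the miR-19a/19b mimic hearts. Both groups reached a single read in one heart. The log2 fold change of -0.29 had a 95% confidence interval from -2.10 to 1.52, so a difference of the size seen in Fmod could not have been detected here.

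**Figure D3:**
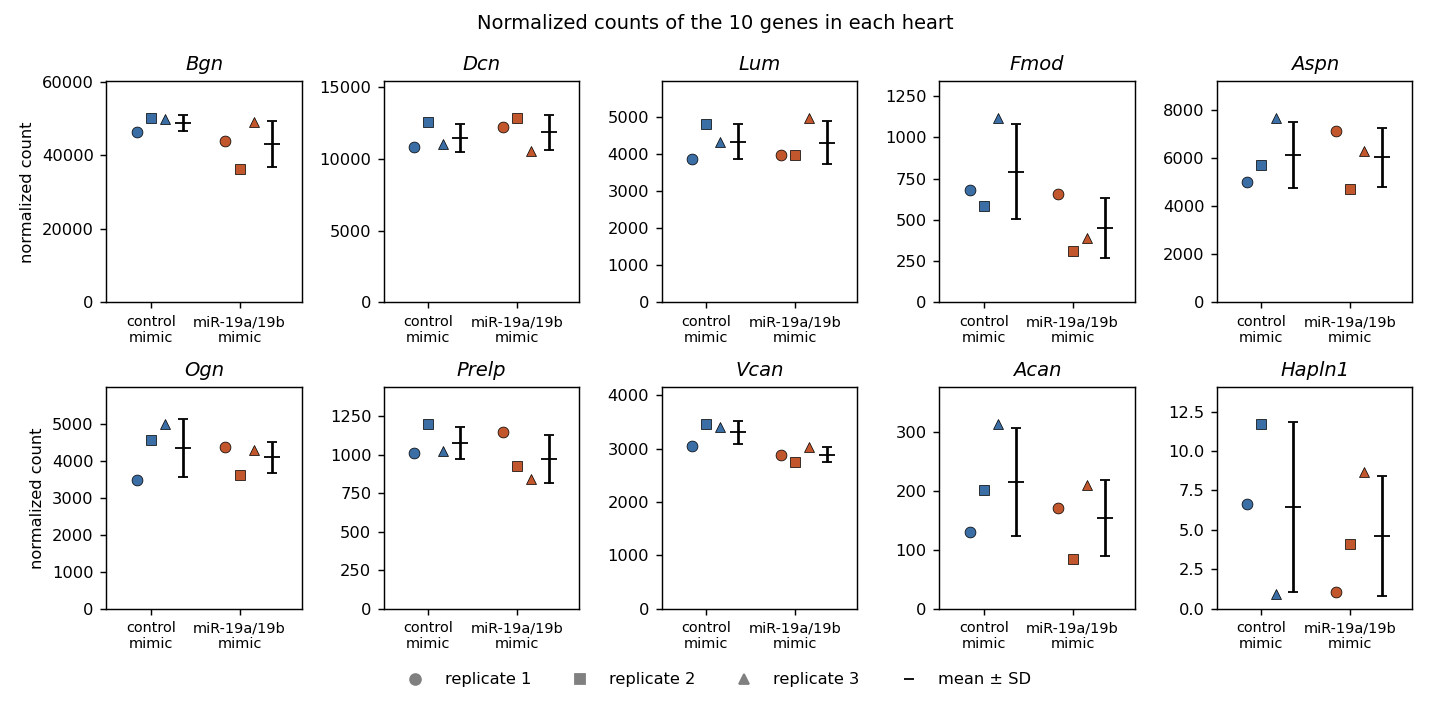
Normalized counts of the 10 genes, one panel each with its own axis from 0, in 3 control mimic hearts (blue) and 3 miR-19a/19b mimic hearts (orange); marker shapes give the replicate and the black bar the mean ± SD. The groups overlap in every panel but that of Vcan, where the nearest hearts are at 3056 and 3031.

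The 10 genes differed in how far they varied among hearts. The highest heart was 3.57-fold over the lowest for Fmod and 3.75-fold for Acan, against 1.22-fold for Dcn, 1.26-fold for Vcan and 1.38-fold for Bgn. Within groups, the coefficient of variation of Fmod was 36.02% in control mimic and 40.2% in miR-19a/19b mimic hearts, and that of Acan was 42.9% and 41.7%. Vcan was at 6.58% and 4.85%. Over the 9 genes with a mean of at least 100 normalized counts, the median coefficient of variation was 10.97% in control mimic and 14.7% in miR-19a/19b mimic hearts, where all 11609 genes at that level had medians of 7.96% and 11.5%. Of the 10 genes, 5 were lowest in miR-19a/19b mimic replicate 2, namely Bgn, Fmod, Aspn, Vcan and Acan. Control mimic replicate 3 was highest for Fmod, Aspn, Ogn and Acan, and control mimic replicate 2 for Bgn, Prelp, Vcan and Hapln1. In miR-19a/19b mimic replicate 2 the 9 cardiac fibroblast markers and the 8 activated fibroblast markers also had their lowest sums, 504033 and 91814 normalized counts. Of the cardiac fibroblast markers, 5 were lowest in that heart (Pdgfra, Col1a1, Col1a2, Col3a1 and Pdgfrb) and 2 were highest there (Gsn and Dpep1), while Tcf21 and Ddr2 were neither. Of the activated fibroblast markers, 5 were lowest and 0 highest there. Both sums overlapped between the groups.

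**Figure D4:**
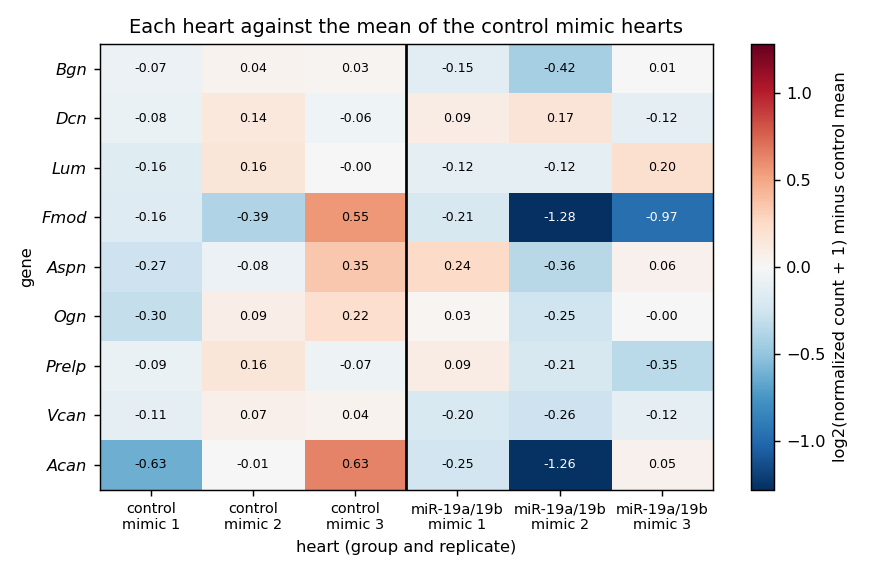
Log2(normalized count + 1) of 9 genes in each heart minus the mean of the control mimic hearts, in colour and in figures (Hapln1, with at most 12 reads, is left out). The widest departures are in the rows of Fmod, from -1.28 to 0.55, and Acan, from -1.26 to 0.63, with both lows in miR-19a/19b mimic replicate 2.

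The genes whose pattern over the 6 hearts came closest were sought among the 11609 genes with a mean of at least 100 normalized counts, by Pearson's r on the log2 scale. For Bgn they were Slc41a2 (r = 0.991), Akap17b (r = 0.989) and Adamts12 (r = 0.987), and for Vcan they were Dcp2 (r = 0.996), Kif3b (r = 0.995) and Ciita (r = 0.993). With 6 hearts and this many genes, values of this height are described only as the highest found, and the hearts share library and depth across genes.

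Other genes that make, fill or cut the proteoglycan matrix were read from 6 lists with 95 symbols, of which 86 were tested. At an adjusted p-value under 0.05, 0 of the 86 passed in limma. At an unadjusted p-value under 0.05, 4 were lower and 0 higher, against the 2.63% and 1.39% of all genes, and the median log2 fold change was -0.060. Leaving out miR-19a/19b mimic replicate 3 raised these to 14 lower and 6 higher, still with 0 at the adjusted threshold. In that fit 6.12% of all genes tested were lower and 8.41% higher at the unadjusted threshold. With all 6 hearts, the groups of some pathway genes did not overlap. In the order of the lists below, 0, 1, 2, 2, 1 and 1 genes were lower in this way. Those higher in this way numbered 0, 0, 0, 1, 1 and 0. Over all genes tested, 5.3% were lower without overlap and 3.9% higher.

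Among the 9 tested of 10 other small leucine-rich proteoglycans, 0 reached an unadjusted p-value under 0.05, and Ecm2 was the highest per kilobase, with 796 ± 170 and 715 ± 72.3 normalized counts (SD, n = 3) in control and miR-19a/19b mimic hearts. Kera, with a mean under 1, was not tested. Of the other lecticans and link proteins, 3 of 5 were tested and 0 passed at that threshold. Hapln4, at 14.8 ± 3.61 and 26.6 ± 11.6 normalized counts, was the highest of them per kilobase. Of the lecticans best known from brain, Bcan had a mean of 10.9 normalized counts in control mimic hearts and Ncan was too low to test.

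Of 23 other matrix and cell surface proteoglycans, 20 were tested. Hspg2, which encodes the basement membrane proteoglycan perlecan, was the highest per kilobase, with 39144 ± 4540.02 and 37582 ± 4801 normalized counts (SD, n = 3). Agrn encodes agrin, a heparan sulfate proteoglycan of basement membranes. It had 4173, 4255 and 4377 normalized counts in the control mimic hearts and 3710, 3469 and 3314 in the miR-19a/19b mimic hearts, with every treated heart below every control. Its log2 fold change was -0.29 (standard error 0.10, unadjusted p = 0.0185, adjusted p = 0.9996 from limma).

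All 30 genes of glycosaminoglycan chain synthesis were tested. Chpf, a chondroitin polymerizing factor, was the highest per kilobase, with 4373 ± 174 and 4555 ± 607 normalized counts (SD, n = 3). Chst15, which adds a second sulfate to chondroitin sulfate, had 416, 361 and 361 normalized counts in the control mimic hearts and 332, 253 and 296 in the miR-19a/19b mimic hearts, without overlap. Its log2 fold change was -0.37 (standard error 0.14, unadjusted p = 0.0227, adjusted p = 0.9996 from limma).

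Of the 20 symbols for hyaluronan synthesis, binding and turnover, which include both names of one gene, 17 were tested. Cemip encodes a protein needed for hyaluronan breakdown and gave the smallest p-value of the 6 lists. It had 1221, 1009 and 1852 normalized counts in the control mimic hearts and 890, 586 and 783 in the miR-19a/19b mimic hearts. The groups did not overlap, and the lowest and the highest heart were the same as for Fmod. Its log2 fold change was -0.83 (standard error 0.23, unadjusted p = 0.00571, adjusted p = 0.948 from limma). Hyal2, a hyaluronidase, was the highest of the list per kilobase, with 1070 ± 59.3 and 1143 ± 91.8 normalized counts (SD, n = 3).

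All 7 Adamts proteases known to cut proteoglycans were tested. Adamts1 was the highest per kilobase, with 3222 ± 725 and 3062 ± 438 normalized counts (SD, n = 3). Adamts20 was low in reads, at 59.7, 87.8 and 76.6 normalized counts in the control mimic hearts and 48.4, 47.4 and 44.1 in the miR-19a/19b mimic hearts, with every treated heart below every control. Its log2 fold change was -0.65 (standard error 0.21, unadjusted p = 0.0116, adjusted p = 0.9996 from limma). Adamts4 and Adamts5, the proteases best known for cutting aggrecan, had log2 fold changes of 0.11 (standard error 0.18) and 0.018 (standard error 0.13).

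**Figure D5:**
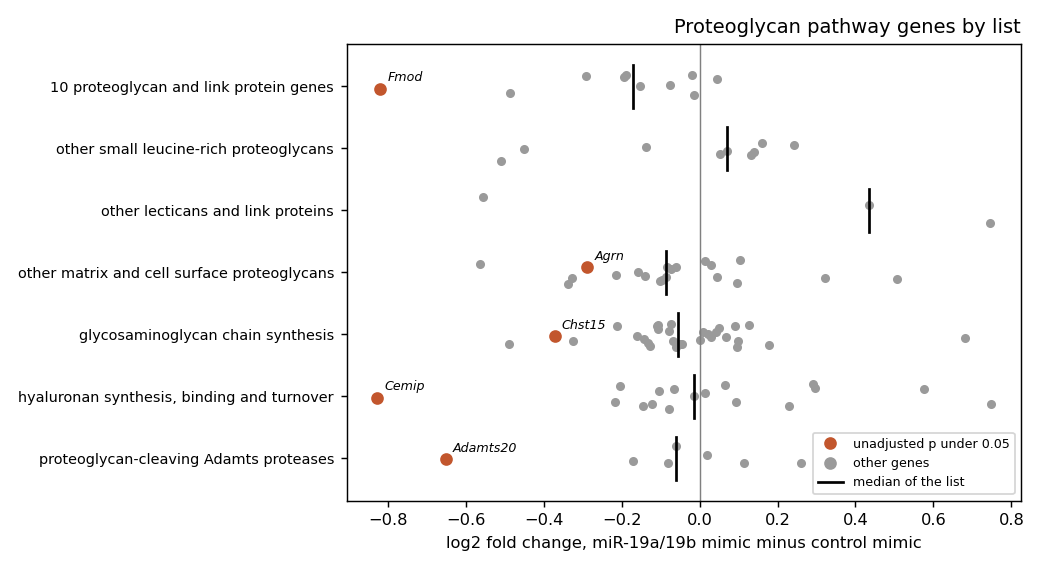
Log2 fold change of each tested gene (points, miR-19a/19b mimic minus control mimic), by list, with the median of each list as a black line; orange points have an unadjusted p-value under 0.05. The orange points, Fmod, Agrn, Chst15, Cemip and Adamts20, all lie below 0, and 0 genes of these lists passed at an adjusted p-value under 0.05.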

How the data were processed

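Mouse heart samples were grouped by their titles, 3 as control mimic and 3 as miR-19a/19b mimic. The titles number the replicates without stating that each is a separate animal, and the paper names 3 biological replicates in each group. The p-values set the difference between groups against the spread between these samples only. The authors aligned the reads with STAR 2.5.1b and counted them per gene with HTSeq 0.6.0. The submitters' processing notes also name DESeq2 1.10.1 and mm9. Of 25884 identifiers found in GENCODE M21 (GRCm38), however, 99.9% lie on the same chromosome and 82.7% share their start and end, and positions are therefore given as GRCm38. The deposited signal is a normalized count, the read count divided by a size factor. In each library 100% of values were whole multiples of 1 read (tolerance 0.02), so reads could be recovered. Fold changes and p-values deposited by the authors, and a shorter table of genes selected by them, were not used.

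The test was limma 3.58.1 (R 4.3.3, trended prior) on log2(normalized count + 1) for genes with a mean of at least 1, with Benjamini-Hochberg adjustment over all 21126. Fold changes on this scale are understated for genes with few reads. Tests on recovered reads used edgeR 4.0.16 and DESeq2 1.42.0. Named genes were the 10 matrix genes, pathway genes with an unadjusted p-value under 0.05 (at most 5 per list), the highest gene of each pathway list per kilobase, defining markers, and the 3 genes most like Bgn and the 3 most like Vcan. Bcan, Ncan, Optc, Omd, Kera, Adamts4 and Adamts5 were named after their values were seen. The matrix genes and the lists were chosen with earlier results of these data known.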

Additional observations from a re-analysis of the deposited data

How the results depend on the processing

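In 9 other settings with all 6 hearts (a pseudocount of 0.1, no filter, at least 10 normalized counts in every heart, the replicate number as a block, scaling by library totals, edgeR's quasi-likelihood test with TMM or upper quartile factors, DESeq2's Wald test and limma-voom), the log2 fold changes of the 10 genes kept their sign in 89 of 89 values, and the 88 with an adjusted p-value missed 0.05. For Hapln1, DESeq2 gave no adjusted p-value and the filter at 10 no value. The count of the 10 genes without overlap between groups, 1, was 0 with scaling by library totals and 0 with TMM. Higher pathway genes at an unadjusted p-value below 0.05 numbered 0 in limma, 1 with TMM, 2 with upper quartile factors and 1 with DESeq2. Of all 21126 genes tested, 293, 315, 337 and 177 were higher at that threshold, in the same order. Over all genes, adjusted calls were 0 lower and 0 higher in limma, 28 and 1 in DESeq2, and 154 and 361 without miR-19a/19b mimic replicate 3.

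With one heart left out in turn, lower genes among the 10 at the unadjusted threshold ranged from 0 (without control mimic replicate 3 or miR-19a/19b mimic replicate 2) to 3 (without miR-19a/19b mimic replicate 3). Lower pathway genes ranged from 2 to 14 and higher ones from 0 to 6, the most in both cases without miR-19a/19b mimic replicate 3. Over all genes tested, the shares at that threshold ranged from 1.76% to 6.12% lower and from 1.02% to 8.41% higher. Genes of the 10 without overlap ranged from 1 to 3, where 15.6% to 31.5% of all genes had none. Non-overlap is more common with fewer hearts, but the number of hearts was the same each time. The 31.5% was without miR-19a/19b mimic replicate 3, and the share was at most 18.3% with any other heart left out. The sign turned in 10 of 60 fold changes. Dcn ranged from -0.016 to 0.13, Lum from -0.12 to 0.065, Aspn from -0.15 to 0.15, Ogn from -0.23 to 0.031 and Hapln1 from -1.07 to 0.30. The cause was not tested.

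Hearts with the same number did not deviate together (correlations of -0.0085, -0.021 and -0.115 over 21126 genes), so the numbers were not taken as pairs. With the replicate block, 1 of the 10 genes was lower at the unadjusted threshold, as without it, and 3 pathway genes in place of 4. Over all 21126 genes, 434 were lower and 207 higher at that threshold with the block, against 555 and 293 without it. With 3 hearts a group, the wide spread between hearts limits the precision for Fmod and Acan, and for Hapln1 the number of reads does too.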
